A study of Mus musculus with 6 samples.

Results

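Immune spots are places in a Visium section of mouse kidney where leukocyte transcripts were dense while 2 markers of tubule injury stayed below a high threshold. In Visium, each barcoded spot of a slide captures the RNA of the tissue patch above it, so that 1 spot can hold several cells of different types or part of a cell. The spots were chosen by measured values, with 2 scores for every spot of at least 1000 unique molecular identifiers (UMIs), each the mean of log1p of UMIs per 10000 over its genes. The immune score used Cd74, Lyz2, C1qa and C1qb, and the injury score used Havcr1 and Lcn2. Immune spots were those at or above the pooled 94th percentile of the immune score (2.00) and below the pooled 95th percentile of the injury score (1.01). There were 751 of them among 18684 spots (4.02%). The 6 genes of the rule carry no test.

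The series held 6 libraries, each the only one of its group, and each 5-month library is called a section below. A wild-type library (WT) had the genotype B6C57, and its age was not among the sources used here. A second library was labelled WT Female & Hetero Female and listed both B6C57 and B6.Cg-Col4a5tm1Yseg, and is called mixed female here. The other 4 libraries came from Alport syndrome (AS) kidneys of genotype B6.Cg-Col4a5tm1Yseg: 1 at 2 months (2m AS), 1 at 5 months (5m AS), and 2 at 5 months that were labelled early treated and late treated, both with hEV treatment. The treated kidneys thus carry the same Col4a5 allele as 5m AS, which is their untreated counterpart. The sources used here do not give the dose, the treatment dates or what separates an early from a late treatment. Kidneys were frozen in OCT and cut into 10 um cryosections.

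Alport syndrome is a disease of the type IV collagen network of the glomerular basement membrane, caused by variants of genes such as Col4a5, and it leads to progressive scarring of the kidney. Macrophages and dendritic cells of the kidney interstitium take up antigen and show it to helper T cells on class II molecules, while Cd74 encodes the chaperone that guides class II molecules to the loading compartment. C1qa and C1qb encode chains of the complement starter C1q, which tissue macrophages make, and Lyz2 encodes lysozyme of myeloid cells. Havcr1 (KIM-1) and Lcn2 (lipocalin 2) are made by damaged tubule epithelium.

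Class II genes share a promoter module whose Y box binds the factor NF-Y, and 3 promoters that hold the letters searched for are shown here. The Y box was searched as CTGATTGG on both strands (CCAATCAG), in windows from 250 bases before to 50 bases after each start, taken from RefSeq on GRCm38.p6. It holds ATTGG, the inverted CCAAT box. These letters occurred in 4 of the 8 class II genes with a promoter entry (50%) and in 1271 of 27025 genes (4.70%). Those 4 are H2-Aa, H2-Eb1, H2-Oa and H2-Eb2. The count requires the exact letters, and the windows of H2-DMb1, H2-DMb2 and H2-Ob hold ATTGG without them. All 10 class II genes of the list were higher in immune spots, with or without these letters. The window of the class II α chain gene H2-Aa is chr17:34287774-34288073 on the minus strand, and its box begins at position -51 from the start. The window of the β chain gene H2-Eb1 is chr17:34305617-34305916 on the plus strand, with the box at -62. The window of H2-Oa, which encodes a chain of a modulator of peptide loading, is chr17:34092129-34092428 on the plus strand, with the box at -46. Capitals mark the Y box.
H2-Aa: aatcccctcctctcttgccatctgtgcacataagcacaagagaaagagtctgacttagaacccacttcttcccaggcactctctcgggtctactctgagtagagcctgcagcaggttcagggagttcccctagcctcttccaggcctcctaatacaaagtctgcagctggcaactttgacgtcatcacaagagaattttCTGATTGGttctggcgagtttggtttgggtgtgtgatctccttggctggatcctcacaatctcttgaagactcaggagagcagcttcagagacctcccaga
H2-Eb1: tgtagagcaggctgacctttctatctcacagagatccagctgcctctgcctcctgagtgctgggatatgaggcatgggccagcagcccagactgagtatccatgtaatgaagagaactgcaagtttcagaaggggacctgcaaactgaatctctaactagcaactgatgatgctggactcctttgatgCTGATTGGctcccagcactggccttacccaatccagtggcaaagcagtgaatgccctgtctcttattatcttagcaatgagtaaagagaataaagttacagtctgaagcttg
H2-Oa: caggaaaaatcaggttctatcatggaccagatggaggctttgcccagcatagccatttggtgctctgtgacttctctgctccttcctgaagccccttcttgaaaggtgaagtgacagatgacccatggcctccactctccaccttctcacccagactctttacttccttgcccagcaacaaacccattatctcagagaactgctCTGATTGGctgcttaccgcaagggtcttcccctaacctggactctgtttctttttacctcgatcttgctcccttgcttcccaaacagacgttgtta
The letters GAGGAAGT (ACTTCCTC on the other strand), a core site of the myeloid factor PU.1, occurred in 2 of 11 macrophage genes with a promoter entry (18.2%) and in 997 of 27025 genes (3.69%). The 2 genes were Ctss and C1qc. Neither motif contains the other. A match describes the letters of a window, and no binding was measured.

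Nearly all immune spots lay in the 3 Alport sections of 5 months. They made up 13.2% of the spots of 5m AS (263 of 1989, exact 95% interval 11.8 to 14.8%). In early treated 5m AS the share was 8.51% (289 of 3398, 7.59 to 9.49%), and in late treated 5m AS it was 6.14% (174 of 2833, 5.29 to 7.09%). The intervals of 5m AS and of both treated sections do not overlap. The remaining libraries held few, with 17 of 3197 spots in mixed female (0.532%), 7 of 3182 in 2m AS (0.220%) and 1 of 4085 in WT (0.0245%). Intervals here and below cover counting error only, and since each group is 1 library, no test between groups was made on these shares. The 3 sections of 5 months held 726 of the 751 immune spots (96.7%), and the comparisons below use these 3, always in the order 5m AS, early treated, late treated.

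**Figure D1:**
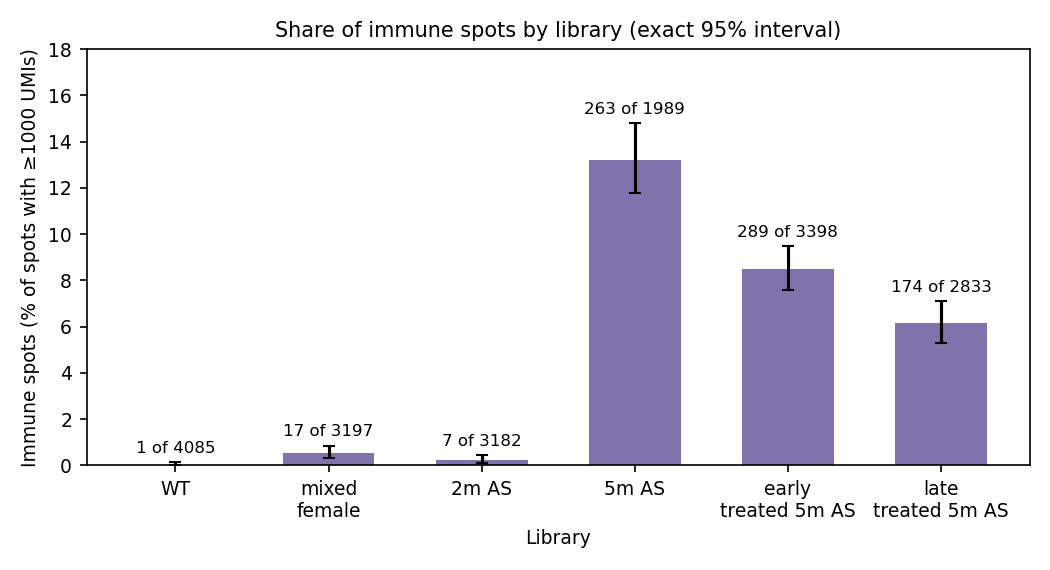
Bars show the immune spots of each of the 6 libraries as a percentage of its spots with at least 1000 UMIs, with exact 95% intervals and the counts printed above each bar. The bars stand at 13.2%, 8.51% and 6.14% in 5m AS, early treated and late treated 5m AS, and under 1% in WT, mixed female and 2m AS.

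The injury limit removed many spots of high immune score, most of all in the untreated section. Spots over both thresholds numbered 223, 129 and 15, which is 45.9, 30.9 and 7.94% of the spots over the immune threshold. Without the injury limit the share would be 24.4% of spots in 5m AS and 12.3% in early treated 5m AS. Of the immune spots kept, 261 (34.8%) had no UMI of Havcr1 or Lcn2 at all, and by section these were 12.9, 44.98 and 47.1%. Median injury scores were 0.575, 0.336 and 0.157 in immune spots against 0.663, 0.251 and 0 in other spots. In both treated sections the immune spots thus had the higher median injury score, though below the limit. Summed over spots, early treated 5m AS did not show this order. Its Havcr1 stood at 0.990 UMIs per 10000 in immune and 1.11 in other spots, and its Lcn2 at 0.699 and 0.717. In late treated 5m AS the immune spots were higher for Havcr1 (0.379 against 0.241) and Lcn2 (0.533 against 0.171). The immune threshold fell within a continuous range: 146 immune spots scored within 0.1 above it and 180 spots under the injury limit scored within 0.1 below it. The lowest immune spot scored 2.00127 and the highest spot left out 2.00069, while the highest injury score among immune spots was 1.00533. The other spots differed between sections as well, with median immune scores of 1.57, 1.14 and 0.905.

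Immune spots were shallower than the rest of their section, with medians of 18014, 6136 and 10788 UMIs against 27458.5, 13956 and 18960 in the other spots. Summed, they gave 4973306, 2232219 and 2271557 UMIs. Levels below are CPM of such sums after edgeR's TMM scaling (scaled CPM), and 3 UMIs correspond to 0.578, 1.19 and 1.11 scaled CPM in the immune sums. In a sum, fewer cells of a type and less RNA per cell cannot be told apart. Without TMM scaling the median gene was 0.31 higher (log2) in immune than in other spots, against -0.01 with it, so rises and falls are relative to that scale. Each position on a slide has a fixed barcode, and 4708 of 4922 barcodes were used in more than 1 library.

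Which genes differed between immune spots and the other spots of the same section was tested over 15416 genes with edgeR's quasi-likelihood test on the sums, with the section as a block. At an adjusted p (Benjamini-Hochberg) under 0.05, 2100 genes were higher (13.6%) and 2342 lower (15.2%) in immune spots. Without early treated 5m AS these counts were 1185 and 1016, and without late treated 5m AS 1540 and 1749. On plain CPM they were 4930 and 926, and with every spot weighted equally 3819 and 910. The spots were chosen by leukocyte genes, so the percentages are the background for each list below and say nothing of the choice itself. The p-values measure the spread among these 3 sections, each of another group. At an unadjusted p under 0.05, 6226 genes (40.4%) differed. In all, 19.2% of the genes had 3 immune sums above all 3 other sums, and 18.1% had them below.

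Macrophage markers that the rule did not use were checked against the name of these spots. Of 15 such genes 14 were higher in immune spots, with a median log2 fold change of 1.55. Csf1r, the receptor for macrophage growth factors, stood at 132, 116 and 131 scaled CPM in immune spots against 84.6, 40.6 and 41.6 in other spots. Adgre1, which encodes the macrophage surface protein F4/80, stood at 47.2, 44.1 and 67.4 against 27.2, 15.9 and 14.6 scaled CPM. For both genes the 3 immune sums lay above all other sums, among which 5m AS was the highest. The largest folds in the list were those of Ctss (1.79), Cd68 (1.72), Ms4a7 (1.64) and C1qc (1.62). Cd163, a scavenger receptor of some tissue macrophages, did not pass, at 1.74, 0.397 and 0.371 against 0.666, 0.539 and 0.350. Summed over the list, immune spots held 1709.5, 1654 and 1949 scaled CPM and other spots 904, 547 and 430.4. These genes are made by the same cells as the genes of the rule, so their rise describes the choice of spots and is no evidence beyond it.

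Class II presentation followed the same pattern and is likewise bound to the rule through Cd74. All 10 class II genes were higher, with log2 fold changes between 1.02 and 1.82. H2-Aa stood at 1146, 1111 and 1439 scaled CPM in immune spots against 716, 400.3 and 323 in other spots, and H2-Eb1 at 1171, 1085 and 1381 against 700.3, 385 and 306. Ciita, the coactivator that switches class II genes on, had 21.8, 32.6 and 37.8 against 13.7, 11.6 and 9.13 scaled CPM. All 3 genes had immune sums above every other sum. The distance was smallest in 5m AS, whose other spots were the richest in class II transcripts, and the list medians by section were 0.65, 1.44 and 1.93 (log2 ratio). The lipid-handling macrophage list was mixed, with 5 of 12 genes higher and 2 lower, and 8 and 1 on plain CPM. Apoe, the lipoprotein ligand, was higher at 3087, 2482 and 2947 against 1684, 1051 and 715 (1.38), as was the fatty acid binder Fabp5 (1.14), while lipoprotein lipase Lpl (-0.71) and the lipid droplet coat Plin2 (-0.30) were lower. On plain CPM the value of Plin2 was 0.018, so its direction depends on the scaling.

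Genes that macrophages make were among the largest rises. Rises and falls were ranked over called genes with at least 20 scaled CPM in the median section of 1 kind of spot and the same direction in each section. Retnla (RELMα, a marker of alternatively activated macrophages, chr16:48842551-48844461 on mm10) stood at 23.1, 20.7 and 65.2 scaled CPM in immune spots against 7.43, 4.497 and 2.39 in other spots. Its log2 fold change was 2.86 ± 0.50 (SE, 3 sections, edgeR adjusted p = 0.00303), and late treated 5m AS was the high sum, without which it was 1.86. Mmp12 (macrophage elastase, chr9:7344381-7369499) stood at 42.6, 36.6 and 32.2 against 10.8, 9.06 and 4.36 scaled CPM, with a log2 fold change of 2.25 ± 0.18 (edgeR adjusted p = 0.00111). The 3 immune sums of Mmp12 were close to each other. Gpnmb (a lysosomal glycoprotein, chr6:49036546-49070929) stood at 27.6, 25.4 and 11.9 against 7.55, 4.96 and 2.06 (2.19 ± 0.19), and Trem2, a lipid-sensing receptor of macrophages, at 31.4, 24.6 and 29.3 against 14.6, 7.05 and 3.74 (1.87 ± 0.29). For all 4 genes the immune sums lay above the other sums. The rule chose spots by macrophage genes, so these rises and their p-values describe that choice and are no evidence beyond it.

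Further secreted and surface proteins of myeloid cells were among the largest rises, with the same limit. Lyz1, the close copy of the rule's Lyz2 with which it can share reads, stood at 10.0, 20.3 and 34.1 scaled CPM in immune spots against 3.57, 3.68 and 1.87 in other spots (2.72 ± 0.42, and 1.96 without late treated 5m AS). Ear2, a ribonuclease of eosinophils and macrophages, had a log2 fold change of 2.16. The leukocyte surface receptor Cd84 had 2.05, and Lpcat2, an enzyme of phospholipid remodelling, 1.85. Thbs2, a matricellular protein of fibroblasts, stood at 65.6, 68.0 and 128 against 26.5, 23.3 and 19.8 scaled CPM (1.85 ± 0.23), again with no overlap. These genes and the chemokines Cxcl9, Ccl6 and Ccl8 below make up the 12 largest rises, all of which stayed called in the same direction when any 1 section was left out.

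**Figure D2:**
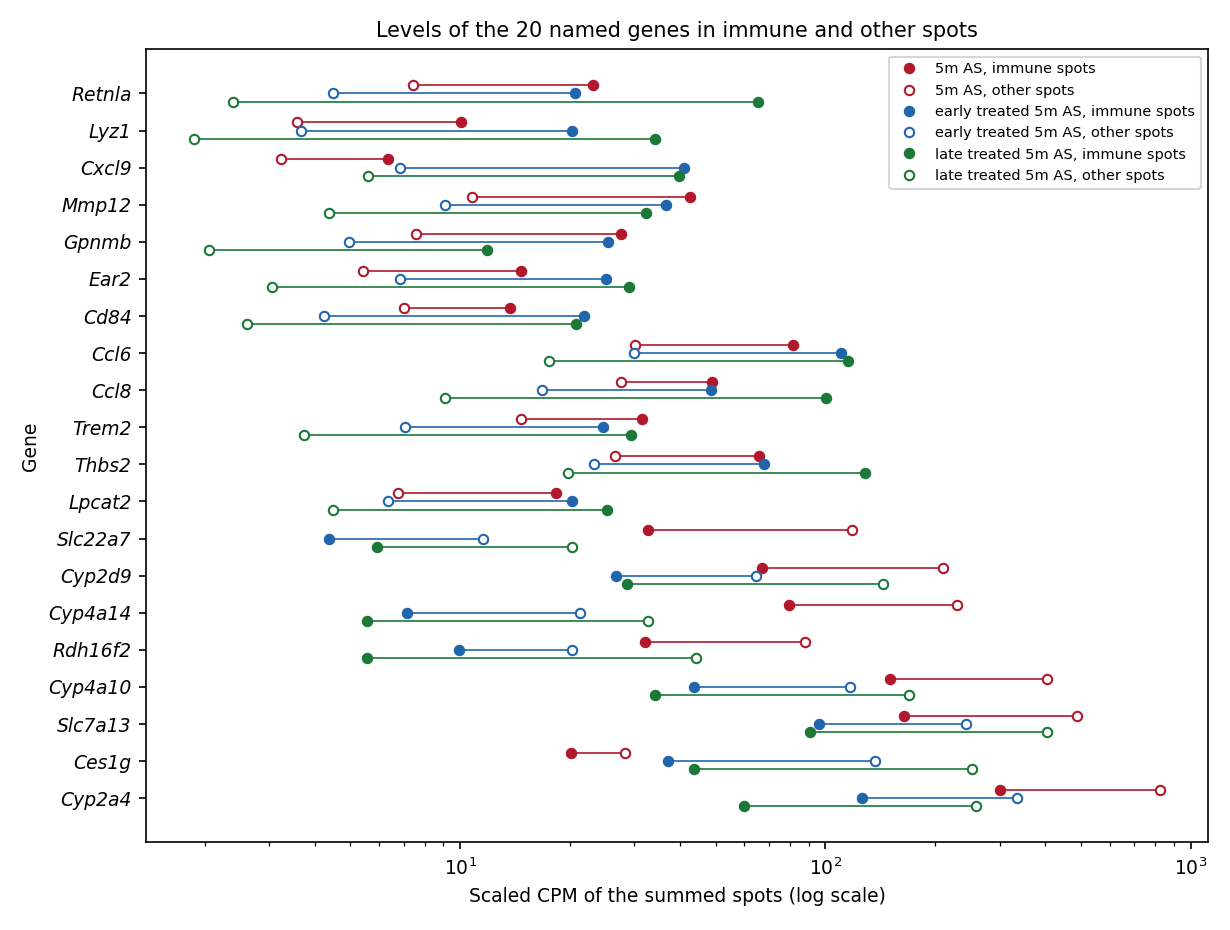
Scaled CPM (log axis) of the 12 genes with the largest rises and the 8 with the largest falls among called genes of at least 20 scaled CPM in the median section of 1 kind of spot, in immune spots (filled points) and other spots (open points) of the 3 sections, joined by 1 line per section. In every section the filled point lies right of the open one for the 12 upper genes, Retnla reaching 65.2 in late treated 5m AS, and left of it for the 8 lower genes.

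Monocyte and dendritic cell genes were higher with them, in spots that the rule had chosen through Lyz2 and Cd74. Of 9 monocyte genes tested, 7 were higher, among them Ccr2, the receptor that draws monocytes out of the blood, at 36.8, 61.6 and 86.7 scaled CPM in immune spots against 24.2, 20.8 and 17.9 in other spots (1.49), and the integrin Itgam (1.66). Ace, which monocytes share with proximal tubule brush border, was lower (-0.98). Of 12 dendritic cell genes 10 were higher (median 1.25), and without early treated 5m AS 6. With other spots matched on UMIs 5 of 11 dendritic cell and 4 of 8 monocyte genes were higher. Itgax (CD11c) stood at 44.9, 41.3 and 46.7 against 17.3, 11.9 and 8.70 scaled CPM (1.83 ± 0.18), with no overlap. Ccr7, which leads dendritic cells to lymph vessels, stood at 5.98, 4.37 and 6.30 against 3.17, 1.45 and 1.17 (1.55). The growth factor receptor Flt3 (1.49) and the cross-presenting cell markers Clec9a (1.40) and Xcr1 (1.33) passed as well, while Siglech of plasmacytoid cells (0.73) and Itgae (0.99) did not.

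T cell transcripts were higher in immune spots although no gene of the rule belongs to T cells. Of 13 T cell genes 11 were higher, with a median log2 fold change of 1.44 over the 13 against -0.01 over all genes tested. This count was 13 without 5m AS, 9 without early treated and 9 without late treated 5m AS. With other spots matched on UMIs it was 8. Il7r, the interleukin 7 receptor, stood at 7.13, 9.14 and 6.67 scaled CPM in immune spots against 2.50, 1.83 and 1.34 in other spots, with a log2 fold change of 2.00 ± 0.28 (edgeR adjusted p = 0.00160). Trbc2, a constant part of the T cell receptor, stood at 17.7, 25.4 and 21.5 against 7.86, 7.31 and 4.65 (1.70), and Cd4, the co-receptor of helper T cells, at 4.63, 6.36 and 5.19 against 2.38, 1.48 and 1.52 (1.55). Cd8a, of cytotoxic T cells and some dendritic cells, stood at 4.24, 5.17 and 7.78 against 2.79, 3.42 and 3.33 (0.82). Immune sums of these 4 genes lay above all other sums. Foxp3 of regulatory T cells (1.57, edgeR adjusted p = 0.0673) and Cd8b1 (0.94, adjusted p = 0.161) did not pass.

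Because depth differed, the share of spots with a T cell UMI was also taken after each spot was thinned to 2500 UMIs. In 5m AS it was 27.5% of 258 immune spots (exact 95% interval 22.2 to 33.4%) against 14.0% of 1712 other spots. In early treated 5m AS it was 30.5% of 249 against 12.5% of 2972, and in late treated 5m AS 38.3% of 167 against 8.75% of 2606. Thinning left out 5, 40 and 7 immune spots and 14, 137 and 53 other spots. Before thinning the shares were 78.3, 60.2 and 74.1% of immune spots and 69.5, 44.1 and 40.9% of other spots. Immune spots were the higher kind in each section on both measures.

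B cell and neutrophil transcripts were scarce, as were those of cytotoxic granules. Summed over their lists, B cell genes had 14.1, 12.7 and 15.9 and neutrophil genes 17.9, 17.5 and 18.2 scaled CPM in immune spots, where NK and cytotoxic genes had 129, 160.2 and 112. Of 6 NK and cytotoxic genes tested, Klrk1 (1.90), Ccl5 (1.46) and Nkg7 (1.35) were higher, while the granule genes Gzma, Gzmb and Prf1 did not pass and reached at most 2.96 scaled CPM in immune spots. Of 8 B cell genes, Cd22 (1.83) and Ms4a1 (CD20, 1.59) were higher, and without early treated or late treated 5m AS 1 gene passed. Ms4a1 stood at 1.16, 1.59 and 1.48 against 0.476, 0.281 and 0.597 scaled CPM, which is a few UMIs per sum. Pax5, a transcription factor of B cells, had no UMI in the immune spots of early treated 5m AS. The neutrophil genes Ly6g, Cxcr2, Camp and Ngp had no UMI in the immune spots of any of the 3 sections, which allows up to the levels of 3 UMIs given above. The calprotectin genes S100a8 (3.86, 2.78 and 1.11 against 2.83, 3.11 and 2.04) and S100a9 (3.28, 2.78 and 3.71 against 2.48, 4.10 and 1.97) did not pass, while Mmp9 (1.54) and Csf3r (1.295), which other myeloid cells make too, were higher. The mast cell genes Cpa3, Fcer1a, Cma1 and Tpsb2 had no UMI in these immune spots.

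Summed over spots, antibody genes divided the sections. None of 11 plasma cell genes passed edgeR's test or DESeq2's, and 1 had an unadjusted edgeR p under 0.05, with a list median of 0.34 and section medians of -0.41, 0.63 and 1.24 (log2 ratio). Igkc, the constant part of the κ light chain, stood at 172, 543 and 85.6 scaled CPM in immune spots against 302, 302 and 39.9 in other spots. Jchain, which links polymeric antibodies, stood at 24.7, 73.9 and 18.2 against 35.2, 47.7 and 7.71. Both genes were lower in immune than in other spots of 5m AS and higher in immune spots of both treated sections. Ighm, the heavy chain of IgM, stood at 169, 116 and 115 against 221, 29.3 and 24.95 (1.24, edgeR adjusted p = 0.0511). Without 5m AS, 7 of the 11 genes were higher, whereas without early treated 5m AS 0 were higher and 2 lower (median 0.10). Without late treated 5m AS the median was 0.02, and with every spot weighted equally 4 genes were higher. Tnfrsf17, the plasma cell survival receptor BCMA, had no UMI in immune spots of the 3 sections. Immunoglobulin genes resemble each other, so reads can be split among them.

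Plasma cell transcripts were more unevenly spread among immune spots than those of T cells or macrophages. The richest 10% of immune spots (27, 29 and 18 spots) held 40.2, 66.2 and 54.7% of the plasma cell UMIs of all immune spots. For T cell genes these shares were 25.7, 23.7 and 21.4%, and for macrophage genes 17.8, 14.2 and 16.8%. In early treated 5m AS the richest immune spot had 1684 plasma cell UMIs per 10000, where the median immune spot had 5.76. The other spots of that section reached 4268. In other spots the richest 10% held 64.4, 62.001 and 36.3% of the plasma cell UMIs. Podocyte genes were more concentrated than plasma cell genes in the immune spots of 5m AS (42.5%) and late treated 5m AS (57.5%), and B cell genes, at few UMIs, in those of 5m AS (67.1%) and early treated 5m AS (100%).

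Signals that draw and organise lymphocytes were partly present. Of 18 chemokines 13 were higher and none lower (median 1.02). Cxcl9, an interferon γ-induced ligand of CXCR3 (chr5:92321347-92328079), stood at 6.36, 40.9 and 39.6 scaled CPM in immune spots against 3.24, 6.86 and 5.59 in other spots, with a log2 fold change of 2.25 ± 0.30. Its immune sum was low in 5m AS, where it lay below the other spots of early treated 5m AS. Ccl6 stood at 81.4, 110.5 and 116 against 30.0, 29.9 and 17.5 (2.00 ± 0.20), Ccl3 at 2.70, 5.17 and 1.85 against 0.690, 1.03 and 0.576 (2.03) and Ccl8 at 48.8, 48.5 and 100.05 against 27.5, 16.7 and 9.09 (1.92 ± 0.39, and 1.12 without late treated 5m AS). Immune sums of these 3 myeloid chemokines did not overlap with the other sums. Of 7 chemokine receptors tested 4 were higher, led by Cxcr3, the receptor for Cxcl9, at 8.48, 11.9 and 11.1 against 4.26, 3.42 and 2.45 (1.62), and 2 of 4 were with other spots matched on UMIs. Of 6 genes of lymphoid tissue organisation tested, the B cell survival factor Tnfsf13b (BAFF, 1.61) and lymphotoxin β (Ltb, 1.48) were higher. With entries of symbols on more than 1 identifier counted too, 4 of 8 were higher and 0 lower. Cxcl13, which gathers B cells into follicles, did not pass (0.48, edgeR adjusted p = 0.146).

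Interferon-induced, class I, complement and leukocyte adhesion genes were higher in most members. Of 23 interferon-induced genes 19 were higher (median 0.76), with Iigp1, a GTPase that attacks vacuoles of intracellular microbes, at 18.3, 37.8 and 89.7 against 13.3, 13.7 and 29.3 scaled CPM (1.21) and Gbp2 at 1.11. The count of interferon-induced genes was 20 without 5m AS, 14 without early treated and 13 without late treated 5m AS. All 12 class I genes were higher, led by the immunoproteasome subunits Psmb9 (1.12) and Psmb8 (1.11) and the peptide transporter Tap1 (1.01), and 7 of the 12 without early treated 5m AS. Of 13 complement genes 11 were higher, such as the receptor chain Itgb2 (1.61), the C3a receptor C3ar1 (1.60) and properdin (Cfp, 1.47), while factor B (Cfb) was lower (-0.53). All 14 adhesion and leukocyte surface genes tested were higher. Ptprc (CD45), found on all leukocytes, stood at 34.9, 43.7 and 56.0 against 20.3, 18.3 and 14.3 (1.32), with no overlap. Of 14 genes of Fc and Toll-like receptors and their cytokines 10 were higher, with Il1b (interleukin 1β) at 25.5, 13.9 and 26.3 against 11.8, 5.15 and 6.62 (1.49), and Tnf (1.37), Il6 (0.17) and Nlrp3 (1.39) did not pass.

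Genes of fibroblasts and matrix were higher. All 26 of the list passed, with a median log2 fold change of 1.02 and section medians of 0.61, 0.91 and 1.57 (log2 ratio). This count was 26 without 5m AS, 22 without early treated and 25 without late treated 5m AS. It was 24 with DESeq2, 24 with other spots matched on UMIs and 15 with no block for the section. Tnc, the wound matrix protein tenascin C, stood at 66.1, 87.8 and 93.8 scaled CPM in immune spots against 36.7, 27.1 and 12.6 in other spots (1.78 ± 0.30). Mmp2, a gelatinase, stood at 118, 114 and 155 against 51.6, 41.2 and 32.1 (1.64), and Mfap5 of elastic microfibrils at 33.7, 23.8 and 35.9 against 14.0, 8.71 and 6.52 (1.70). Postn (periostin) had the largest fold of the list at low levels, 5.21, 3.58 and 8.15 against 2.69, 1.22 and 0.741 (1.90). The collagen I chain Col1a1 stood at 373, 302 and 483 against 252, 149.5 and 134 (1.14) and Col3a1 had a log2 fold change of 1.10. Immune sums of Tnc, Mmp2, Mfap5, Postn and Col1a1 lay above all other sums.

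By spot, 339 of the 751 immune spots (45.1%) also reached the pooled 94th percentile of a score of fibrillar collagen genes, as did 4.36% of all other spots. These 339 were 30.2% of the spots over that collagen threshold. In 5m AS the share was 51.0% of immune against 19.5% of other spots. It was 36.0% against 9.17% in early treated and 57.5% against 3.84% in late treated 5m AS. A like score of arterial smooth muscle genes was reached by 17.9, 26.3 and 25.3% of the immune spots of the 3 sections and by 4.11, 8.88 and 5.27% of their other spots. A score of glomerular genes was reached by 12.5, 9.69 and 12.1% of immune and 5.68, 8.11 and 8.35% of other spots, with the smallest gap in early treated 5m AS.

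Smooth muscle genes of the vessel wall were higher, while the count of endothelial genes depended on the scaling. All 9 smooth muscle genes tested were higher (median 0.64, and 5 of them with other spots matched on UMIs), with Tagln at 126, 203 and 164 scaled CPM in immune spots against 70.6, 89.4 and 48.8 in other spots (1.25) and the actin Acta2 at 108, 188 and 179 against 61.98, 100.2 and 72.8 (1.003). Immune sums of both lay above all other sums. Of 15 endothelial genes Pdpn (0.92), which lymphatic vessels share with podocytes, Flt4 of lymphatic vessels (0.53) and Eng (0.42) were higher, and Pecam1 (0.14) and Cdh5 (0.18) did not pass. On plain CPM 11 of the 15 were higher, with every spot weighted equally 8, and with other spots matched on UMIs 1 of 13. Of 12 podocyte genes 5 were higher, among them Nes (0.88), Wt1 (0.73) and Synpo (0.71), and 11 were on plain CPM. Nphs1, which encodes nephrin of the slit diaphragm, did not pass (0.41). Of 6 mesangial and renin cell genes, Serpine2 (1.15), Pdgfrb (0.94) and Itga8 (0.51) were higher.

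Proximal tubule genes were lower, above all those of the late segment. All 10 late proximal genes passed, with a median log2 fold change of -1.42. Slc7a13, an amino acid transporter of the straight proximal tubule (chr4:19818725-19842218), stood at 164, 96.2 and 90.8 scaled CPM in immune spots against 489, 242 and 405 in other spots. Its log2 fold change was -1.69 ± 0.16 (edgeR adjusted p = 0.00111), and the 3 immune sums lay below all other sums. Slc22a7, an organic anion transporter (chr17:46432183-46438457), stood at 32.6, 4.37 and 5.93 against 118, 11.5 and 20.2 (-1.78 ± 0.14). It was high in both kinds of spot of 5m AS, so the sums overlapped although each section had less of it in immune spots. With other spots matched on UMIs its log2 fold change was -0.95, and it remained called.

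The remaining 6 of the 8 largest falls, ranked like the rises, were enzymes of proximal tubule metabolism. They were the drug and steroid hydroxylases Cyp2d9 (-1.75) and Cyp2a4 (-1.64), the fatty acid hydroxylases Cyp4a14 (-1.74) and Cyp4a10 (-1.69), the retinol dehydrogenase Rdh16f2 (-1.695) and the carboxylesterase Ces1g (-1.68). Close paralogs of these genes exist, between which reads can be split. All 14 genes of the proximal metabolism list were lower (median -1.04), and 8 without early treated 5m AS. Pck1, the entry enzyme of glucose synthesis, stood at 386, 387 and 173 against 716, 1039.7 and 588 (-1.35), with no overlap. Of 12 early proximal genes 8 were lower, and 4 without early treated 5m AS. The section medians of this list were -0.17, -0.87 and -1.21 (log2 ratio), so the fall was smallest in 5m AS. The largest folds of that list were those of Hpd (-1.91), whose overlapping sums stood at 7.52, 0.795 and 1.11 against 22.6, 6.51 and 6.85, the endocytic receptor Cubn (-1.21), the anion transporter Slc22a6 (-1.17) and Lrp2 (-1.07), the partner of Cubn. Slc5a2, the glucose transporter SGLT2, did not pass, at 259, 322 and 323 against 171, 467 and 540.0, and it was higher in immune spots of 5m AS and lower in those of both treated sections.

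Distal segments differed from each other. Of 10 genes of the thick ascending limb 9 were lower, such as Egf at 139.8, 151 and 114 scaled CPM in immune spots against 278, 348 and 478 in other spots (-1.41) and Umod (uromodulin) at 3023, 1552 and 1266 against 5349.9, 3121 and 2986 (-1.02). Bst1, an ectoenzyme also made by myeloid cells, was higher (0.91). Of 8 distal convoluted tubule genes 6 were lower, but 1 without early treated and 2 without late treated 5m AS, and 2 on plain CPM. Slc12a3, the thiazide-sensitive cotransporter, stood at 266, 251 and 229 against 291, 672 and 791 (-1.11), and the section medians of this list were 0.01, -1.03 and -1.18 (log2 ratio). Of 10 collecting duct genes Tmem213 (-0.54) was lower and no other passed, at a median of -0.07. None of 10 intercalated cell genes passed edgeR's test or DESeq2's, and 0 had an unadjusted edgeR p under 0.05 (median 0.02). On plain CPM these medians were 0.24 and 0.34, with 2 and 4 genes higher, so neither list has a direction that holds on both scales.

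Genes of respiration were lower together with the proximal tubule genes. All 16 nuclear genes of oxidative phosphorylation (median -0.70) and all 10 mitochondrially encoded genes (median -1.05) passed. The mitochondrially encoded genes summed to 44242, 35681 and 40810 scaled CPM in immune spots and 92728, 66567 and 95772 in other spots. Every section thus had less in its immune spots, and the 3 immune sums lay below all other sums. Without early treated 5m AS, 3 of the 16 and 1 of the 10 passed, at medians of -0.70 and -1.16.

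**Figure D3:**
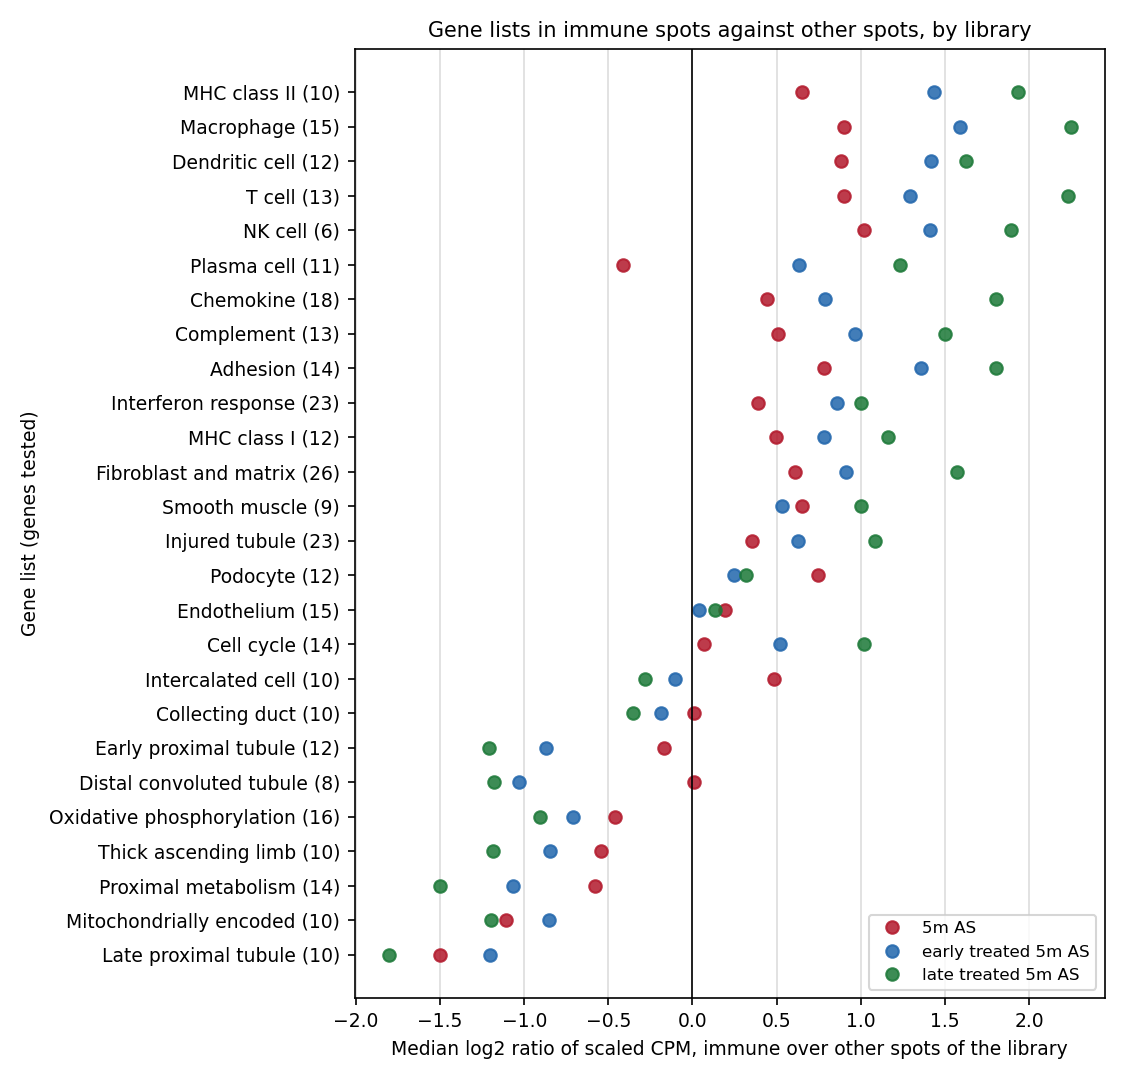
Each point is the median log2 ratio of scaled CPM (immune over other spots) of a gene list in 1 of the 3 sections, with the number of genes tested in brackets. T cell, dendritic cell, matrix and smooth muscle lists lie right of 0 in all 3 sections and late proximal tubule left of it, while plasma cell genes lie at -0.41 in 5m AS and at 0.63 and 1.24 in the treated sections.

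Several genes of injured or repairing tubule other than Havcr1 and Lcn2 were higher in immune spots, although the rule had left out the spots that scored highest for those 2 genes. Of 23 such genes 12 were higher and 2 lower, and on plain CPM 17 and 0. Ltbp2, a matrix protein of microfibrils, had the largest fold, at 121, 123 and 115 scaled CPM in immune spots against 66.3, 37.5 and 15.7 in other spots (1.78 ± 0.29), with no overlap. Vim (1.24), Krt19 (1.18) and Tmsb10 (1.14) followed, of which Vim and Tmsb10 are also made by leukocytes and fibroblasts. Vcam1, an adhesion molecule of tubule cells that fail to repair and of endothelium, had 1.02, and the progenitor factor Sox9 0.97. Spp1 (osteopontin) did not pass, at 6401, 5614 and 3829 against 7962, 5369.6 and 2858. Hmox1 (heme oxygenase, -0.43) and the fibrinogen chain Fgg (-0.42) were lower, and Fgg was at 0.06 without the injury limit. Among cell cycle genes 5 of 14 were higher, led by Mki67 (0.96). This count was 2 without early treated, 3 without late treated and 11 without untreated 5m AS, and 11 on plain CPM. Of 14 immediate early genes 6 were higher, with Fos (1.18) and Egr1 (0.86) ahead, and 10 were on plain CPM.

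Immune spots were next compared with the injured spots of the same sections, which are all spots over the injury threshold (486, 384 and 51), including those that also passed the immune threshold. By edgeR, 566 of 12449 genes were higher (4.55%) and 378 lower (3.04%) in immune spots. Without early treated 5m AS the counts were 144 and 125, and without late treated 5m AS, the section with the fewest injured spots, 761 and 568. The immune sums are those of the previous comparison with TMM factors fitted anew, so their levels differ slightly, and the 2 comparisons are not independent. At an unadjusted p under 0.05, 2621 genes (21.1%) differed. In this comparison 10.8% of genes had 3 immune sums above all injured sums and 7.15% had them below.

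Injury genes were lower in immune spots. The limits on Havcr1 and Lcn2 define both kinds of spot, so these values are a description. Of 23 injured tubule genes 13 were lower, and 4 without early treated 5m AS. Sprr1a, a cornified envelope protein made under stress, stood at 12.1, 10.4 and 2.04 against 52.3, 82.9 and 46.9 scaled CPM, the injured sums being the latter. Il1f6 (interleukin 36α) stood at 5.56, 5.61 and 2.04 against 14.7, 43.4 and 51.5. Fgg, a fibrinogen chain, stood at 57.9, 73.8 and 32.7 against 139, 337 and 286, with log2 fold changes of -2.04 for Fgg, -1.87 for Fga and -1.76 for Fgb. Spp1 stood at 6834, 6096 and 4219 against 15261, 18347 and 20630 (-1.68). The vitamin D binding protein Gc (-1.57) and the keratin Krt20 (-1.47) were the other 2 of the 8 largest falls, and in all 8 except Krt20 the immune sums lay below every injured sum. Vim was the 1 gene of the list that was higher (0.88).

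Against injured spots, macrophage genes were higher in 12 of 14, at a median of 0.61, and in 4 without early treated 5m AS. All immune spots reached the immune threshold, while 263 of 486, 255 of 384 and 36 of 51 injured spots did not. Higher macrophage genes were thus built into the 2 definitions, and their values and p-values are a description. Gpnmb stood at 29.4, 27.6 and 13.1 against 8.08, 5.58 and 1.51 scaled CPM and had the largest rise by the same ranking (2.03 ± 0.20, edgeR adjusted p = 4.4e-05). Mmp12 stood at 45.5, 39.7 and 35.5 against 15.7, 20.1 and 9.09 (1.37). The immune sums of both lay above the injured sums. Cxcl9 stood at 6.79, 44.5 and 43.7 against 3.87, 8.24 and 10.6 (1.78), with overlap through 5m AS, and without early treated 5m AS it had 1.24 and did not pass.

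Chemokines parted between the kinds of spot. Of 17, Cxcl9, Ccl6 (1.0) and the homing factor Cxcl12 (0.88) were higher in immune than in injured spots. The neutrophil attractant Cxcl1 (-1.08), the monocyte attractants Ccl7 (-0.87) and Ccl2 (-0.59) and the macrophage growth factor Il34 (-0.68) were lower. Without early treated 5m AS 1 of the 17 was higher and 2 were lower, and against injured spots below the immune threshold 7 were higher and 2 lower. Among 4 genes of lymphoid organisation tested, Cxcl13 (1.46) and Tnfsf13b (0.95) were higher and Ccl20, a ligand of CCR6, was lower (-1.94), and without early treated 5m AS 1 was higher and 0 lower. With entries of symbols on more than 1 identifier counted too, 5 of 6 were called, Ccl20 being the only lower one. Lower in immune than in injured spots were also C3 (-0.60), Cfb (-0.46), the hyaluronan receptor Cd44 (-0.66) and Vcam1 (-0.65), which were the lower genes of the complement and adhesion lists, and Timp1 (-0.64) of the matrix list.

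Plasma cell genes were higher in immune than in injured spots in 6 of 8, at a median of 1.32, and in 2 without early treated 5m AS. Ighm stood at 181, 126 and 127 against 92.9, 29.6 and 36.3 scaled CPM (1.44 ± 0.16) and Igkc at 183, 590.0 and 94.3 against 136, 113 and 37.9 (1.37 ± 0.26). In each section both genes were higher in immune spots, most of all in early treated 5m AS. Without that section Igkc had 0.67, and without 5m AS 2.15. Of 11 T cell genes Il7r (1.17) and Trbc2 (0.98) were higher, at a list median of 0.52, and none passed without early treated 5m AS. Against injured spots below the immune threshold 7 of the 11 were higher.

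Podocyte, matrix and transport genes separated immune from injured spots as well. Of 12 podocyte genes 10 were higher (median 1.14). Wt1, a transcription factor of podocytes, stood at 22.2, 30.6 and 29.4 against 10.6, 9.94 and 4.54 scaled CPM (1.37), and Nphs1 passed here (1.33). Sfrp2, a secreted modulator of Wnt signals, stood at 20.6, 25.5 and 40.0 against 7.39, 4.61 and 7.57 (1.84 ± 0.21), and Igfbp2, which binds insulin-like growth factors, at 58.5, 47.9 and 62.5 against 17.3, 15.0 and 6.06 (1.83 ± 0.15). The immune sums of Wt1, Sfrp2 and Igfbp2 lay above the injured sums. Of 26 matrix genes 14 were higher, and 4 without early treated 5m AS. Mmp2 had 1.08, and of 9 smooth muscle genes 6 were higher, with Myh11 at 1.26.

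Tubule segments did not move as one in this comparison. Of 10 intercalated cell genes 7 were higher than in injured spots, such as the anion exchanger Slc26a4 (0.90) and the receptor Insrr (0.80), and 4 when either 5m AS or early treated 5m AS was left out. Of 12 early proximal genes 4 were higher, among them Slc5a12 (0.89) and Slc5a2 (0.85), while Hpd (-1.15) and Cubn (-0.39) were lower and 0 genes of the list were without early treated 5m AS. Of 9 late proximal genes 7 were lower (median -0.78), and of 10 thick ascending limb genes 6, with Umod at -1.27. None of the 16 oxidative phosphorylation genes and 10 mitochondrially encoded genes passed edgeR's test, at medians of -0.14 and -0.27. At an unadjusted edgeR p under 0.05, 1 of the 16 and 7 of the 10 were lower, and by DESeq2 0 and 1 passed. All 10 mitochondrially encoded genes were lower without late treated 5m AS (median -0.33), as were 8 of them against injured spots below the immune threshold (-0.50).

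**Figure D4:**
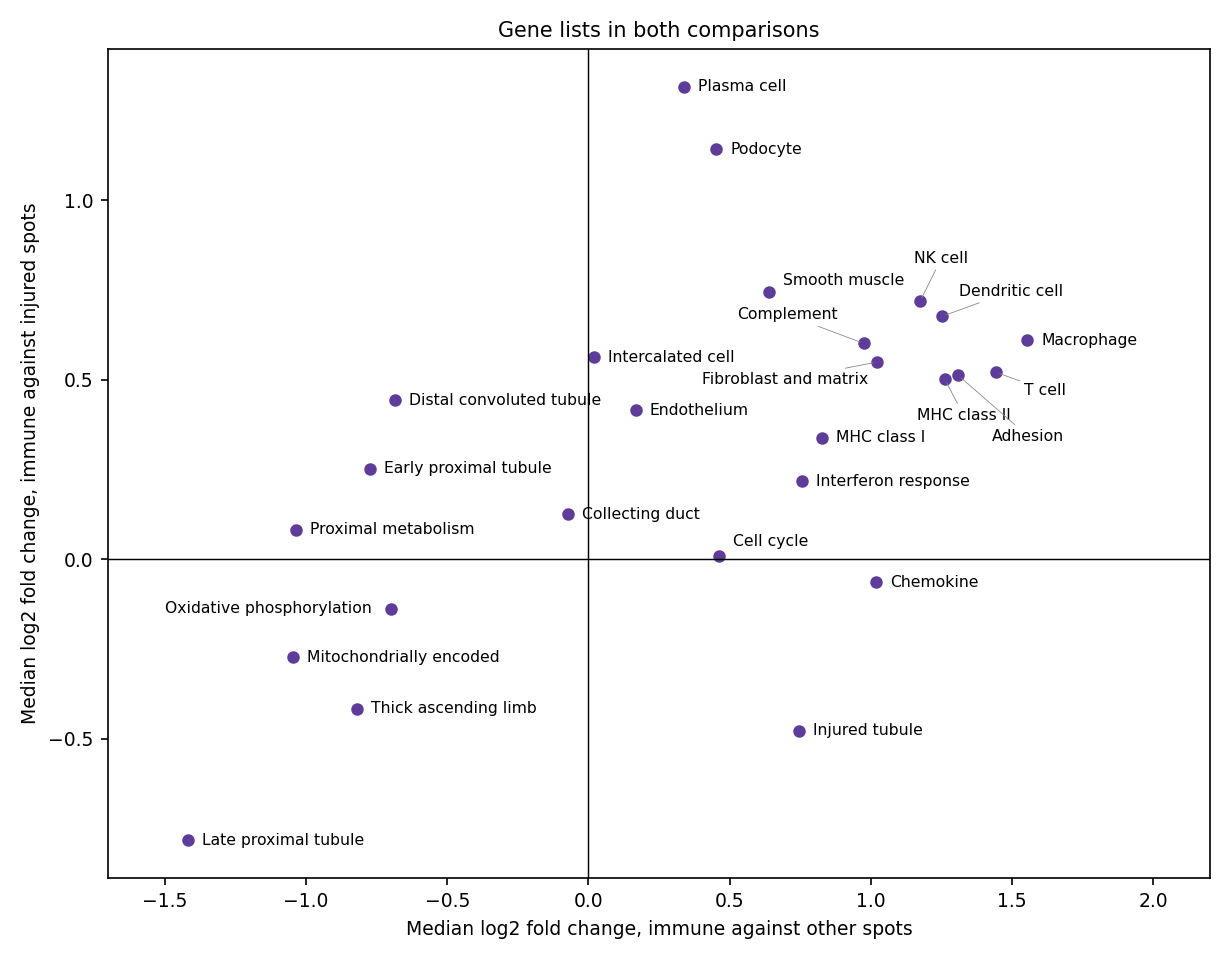
Each point is a gene list, placed by its median log2 fold change in immune against other spots (horizontal axis) and in immune against injured spots (vertical axis), which share the immune sums. The injured tubule list lies at 0.75 and -0.48, plasma cell genes at 0.34 and 1.32, and late proximal tubule at -1.42 and -0.78.

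Immune spots of the 2 treated sections were last set against those of 5m AS, which both comparisons share. With 1 section a group there is no test, and a ratio of scaled CPM is given with its 95% counting interval and with the same ratio over the other spots. Among genes of at least 20 scaled CPM in 1 of the 2 sections, 31 of 7734 were at least 2-fold higher (0.401%) and 69 lower (0.892%) in immune spots of early treated 5m AS. In those of late treated 5m AS 92 of 7870 were higher (1.17%) and 162 lower (2.06%). With every spot weighted equally 110 and 280 were higher. Over the other spots the same genes gave 75 and 103 (0.97% and 1.33%), and 165 and 284 (2.1% and 3.61%). The untreated section was processed with Space Ranger 1.2.1 and the treated ones with 1.3.1, which cannot be told apart from the treatment.

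Immunoglobulin genes were among the 5 largest rises between immune spots of early treated and untreated 5m AS. Ighg2c, a heavy chain of IgG, stood at 355 against 6.56 scaled CPM, a ratio of 54.2 (38.5 to 78.8), where the other spots had 4.29. Ighg2b stood at 139 against 1.54, a ratio of 90.2 (45.3 to 211, other spots 10.2). Igha, the heavy chain of IgA, stood at 321 against 44.9, a ratio of 7.15 (other spots 4.67). The light chain Iglc1 had a ratio of 70.8 (23.5 to 349, other spots 49.2) over 3 UMIs in 5m AS. Igkc had a ratio of 3.17 in immune and 1.0 in other spots, while Ighm was lower, at 0.683 and 0.133. In all, 6 of 8 plasma cell genes were at least 2-fold higher. The counting intervals leave out the spread among spots. In early treated 5m AS, 29 of the 289 immune spots held 66.2% of the plasma cell UMIs of all its immune spots. The median immune spot had 5.76 plasma cell UMIs per 10000 there and 3.61 in 5m AS. Whether the richest spots carry the immunoglobulin ratios was not tested. Slpi, a secreted protease inhibitor of epithelia and myeloid cells, stood at 59.2 against 2.12, a ratio of 27.9 (15.2 to 57.1, other spots 8.29). With every spot weighted equally the ratio of Ighg2c was 166, beyond its counting interval, and that of Slpi was 45.1.

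Interferon-induced genes stood higher in immune spots of late treated than of untreated 5m AS. Of 19, 6 were at least 2-fold higher and none as much lower, with a median log2 ratio of 0.59 against 0.14 in other spots and -0.06 over all genes. Iigp1 stood at 89.7 against 18.3 scaled CPM, a ratio of 4.90 (3.85 to 6.27, other spots 2.196). Gbp2 stood at 64.5 against 20.8, a ratio of 3.10 (other spots 1.22). Cxcl9 had a ratio of 6.23 (4.18 to 9.51, other spots 1.73), and Igha one of 4.34 (other spots 1.13). In early treated 5m AS 1 of 18 interferon-induced genes was at least 2-fold higher, at a list median of 0.18. Whether these ratios differ between the kinds of spot or between the treated sections was not tested.

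**Figure D5:**
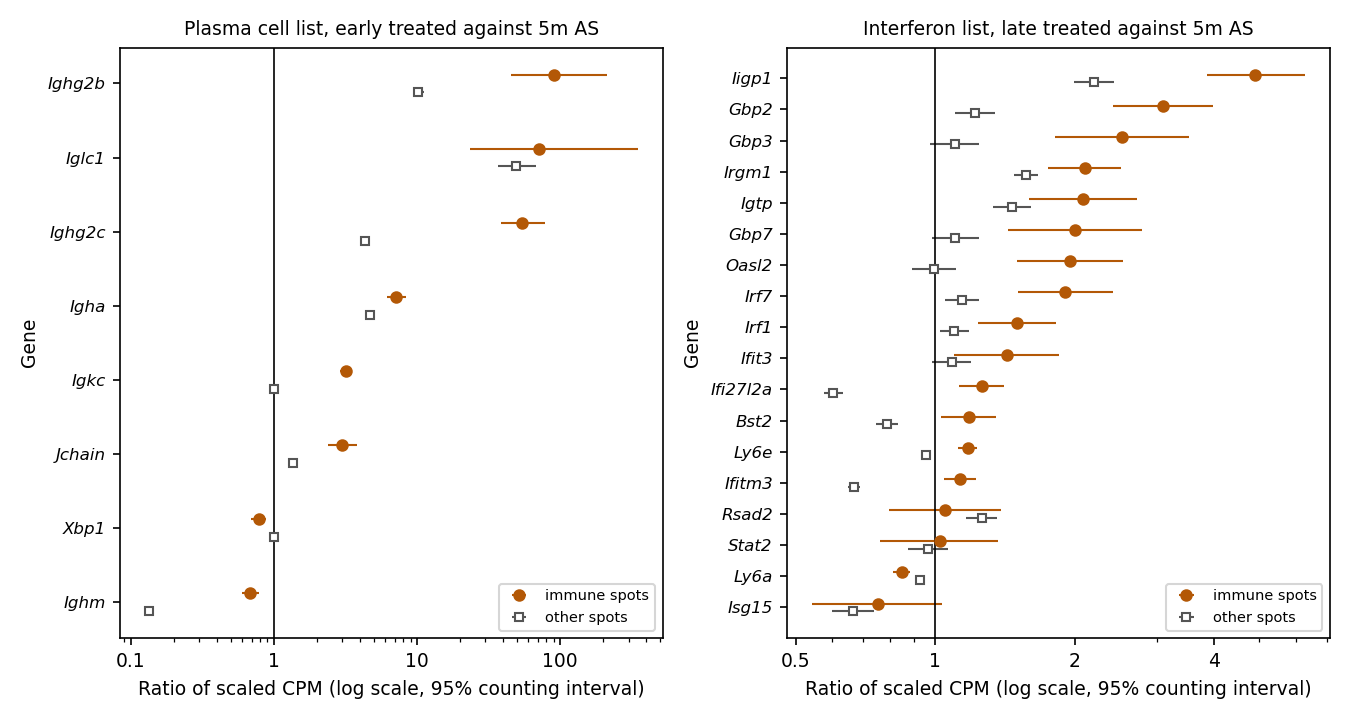
Ratios of scaled CPM with 95% counting intervals (log axes) in immune spots (circles) and other spots (squares), for plasma cell genes of early treated against untreated 5m AS (left) and 18 of the 19 interferon-induced genes of late treated against untreated 5m AS (right). Ighg2b lies at 90.2 in immune and 10.2 in other spots, and Iigp1 at 4.90 and 2.196.

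Other large ratios held in both kinds of spot. Cyp24a1, the enzyme that breaks down active vitamin D, stood at 172 against 11.6 scaled CPM in immune spots of late treated 5m AS, a ratio of 14.9, and had 49.0 in other spots. Serpina1d, one of a group of near-identical protease inhibitor genes that can share reads, had a ratio of 0.0120 (0.00246 to 0.0352) in early treated and 0.00743 (0.000898 to 0.0270) in late treated 5m AS, against 0.00557 and 0.00483 in other spots. Serpina1a (0.0168 and 0.0235) and Serpina1f (0.0244 and 0.0130) were low in the same way, and Serpina1f had 0.0197 in late treated 5m AS with every spot weighted equally. In early treated 5m AS the brush border protease Mep1b (0.0486, other spots 0.0706) and the glutamine transporter Slc38a3 (0.0606, other spots 0.0635) were among the 5 lowest. In late treated 5m AS Slc22a13 was (0.0437, other spots 0.0416), and Lars2, the mitochondrial leucyl-tRNA synthetase, was among the 5 highest (3.76, other spots 4.03). Mettl7a2 had no UMI in immune spots of late treated 5m AS and stood at 35.7 scaled CPM in those of 5m AS. That level was 32.1-fold above the level of 3 UMIs in the late treated sum, a figure that leaves out the counting error of 5m AS. With the counting error of both sums the upper 95% limit of the ratio of late treated to untreated 5m AS was 0.0387.

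Macrophage and matrix lists had medians near 0 between the immune spots of treated and untreated 5m AS. The sections share 1 threshold on the immune score, which bears on the macrophage genes, so their values describe the choice of spots. Macrophage genes had median log2 ratios of -0.07 in early and 0.20 in late treated 5m AS, against -0.81 and -1.03 in other spots. Matrix genes had -0.13 and 0.10, against -0.61 and -1.02.

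Immune spots varied among themselves in stroma and tubule content. Matrix list UMIs per 10000 had medians of 42.9, 41.5 and 52.2 over immune spots, against 23.4, 16.6 and 11.03 over other spots. Their 10th and 90th percentiles were 24.8 and 82.9 in 5m AS, 18.4 and 96.7 in early treated, and 22.9 and 101 in late treated 5m AS. Late proximal UMIs had medians of 18.2, 19.1 and 19.2 against 36.8, 35.2 and 50.5. The immune spots richest in them held 66.7, 122 and 84.4 per 10000, more than the median other spot of each section. Late proximal UMIs were absent from 1, 5 and 0 immune spots.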

How the data were processed

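UMI counts per gene and spot were deposited by the authors as whole numbers without normalization. They were made with Space Ranger 1.2.1 (WT and 5m AS) or 1.3.1 (the other 4 libraries), per the file headers, and the submitters' processing notes name mm10. Of 19095 deposited spots, 411 under 1000 UMIs were left out. Members, lists and tests were chosen with earlier results of these data known.

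UMIs were summed per library over immune spots and over the spots compared, in libraries with at least 20 immune spots. The sums were tested with edgeR 4.0.16 in R 4.3.3 (TMM factors, filterByExpr, library as a block, quasi-likelihood F test, Benjamini-Hochberg over all genes tested). Standard errors are those implied by the F statistic. The 6 genes of the rule stayed in the totals and out of the tests. On simulated data the comparison with other spots recovered 73.7% of genes changed 2-fold and 33.7% of those changed 1.5-fold over 15053 genes, with 4.50% false calls. The comparison with injured spots recovered 88.8% and 39.4% over 12278 genes, with 3.08% false calls. The simulation used a fixed dispersion and the same fold in every section. Only 98 or 99 genes of each fold were changed, balanced between rises and falls. In the real sums many more genes were called and folds varied by section, and rates under such settings were not tested. Immune spots were not compared with those of 2m AS or WT, which held 7 and 1. The labels carry no replicate numbers, and doublet callers do not apply to spots. Spot positions were not used.

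Named genes are the 12 largest rises and 8 largest falls against other spots, and 8 of each against injured spots (called, at least 20 scaled CPM in the median library of 1 kind, same direction in each library). Between libraries they are the 5 largest each way, and in each list up to 4 called genes with the largest fold, beside markers near 0. Further list members were named after their values were seen, and some are not reported here. Symbols on more than 1 identifier (38) were left out of the lists. Coordinates come from the GENCODE annotation of GRCm38 (mm10). Shares have exact (Clopper-Pearson) 95% intervals. DESeq2 1.42.0, limma 3.58.1 and other thresholds, depths and scalings served as alternatives.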

Additional observations from a re-analysis of the deposited data

Results flagged for a closer look

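The ratio of immune to other spots was flagged for 4 genes of the lists because it pointed one way in 1 section and the opposite way in another. The difference between the sections was not tested. Every group is 1 library, so no check for an outlying sample within a group was possible. The cyclin gene Ccnb1 had a ratio of 2.87 in late treated 5m AS (95% counting interval 1.72 to 4.56) and 0.627 in 5m AS (0.392 to 0.959), with 1.18 in early treated 5m AS. Ighg2c, an IgG heavy chain, had 2.58 in early treated 5m AS (2.40 to 2.77) and 0.204 in 5m AS (0.141 to 0.287). Its ratio of 5.40 in late treated 5m AS rested on 3 UMIs (0.956 to 21.0). The κ light chain gene Igkc had 1.80 in early treated 5m AS and 0.569 in 5m AS, with 2.15 in late treated 5m AS. The glucose transporter gene Slc5a2 had 1.52 in 5m AS (1.43 to 1.61) and 0.599 in late treated 5m AS, with 0.689 in early treated 5m AS.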

How the results depend on the processing

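Against other spots, the counts of 2100 higher and 2342 lower genes were 3819 and 910 with every spot weighted equally, 4930 and 926 on plain CPM, and 1035 and 1095 with other spots matched on UMIs. With no replicate block (the block is the section) they were 1189 and 970. Leaving out 1 section gave 1185 to 2710 higher and 1016 to 2787 lower genes. Against injured spots, the counts of 566 and 378 were 171 and 121 with DESeq2, 910 and 234 on plain CPM, 1160 and 758 against injured spots below the immune threshold, and 1 and 1 with no replicate block. Leaving out 1 section gave 144 to 761 and 125 to 568. Plain CPM in these 2 comparisons and matching on UMIs were chosen after seeing the data.

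The share of immune spots in 5m AS was 24.4% without the injury limit and 16.1% with scores on 5000 UMIs. In early treated 5m AS it was 12.3% without the injury limit, 9.59% without Cd74 in the score and 7.53% on 5000 UMIs, and in WT it was 0 without Cd74. Between immune spots, 110 genes (equal weights) and 56 (plain CPM) were at least 2-fold higher in early treated than in untreated 5m AS, and 280 and 209 in late treated 5m AS, where 105 were lower on plain CPM. Of the 4442 genes called against other spots, 73 had the opposite direction with every spot weighted equally and 36 on plain CPM. Among genes of the lists and those named, the values that changed sign were those of Fgg against other spots (0.15 with a threshold within each library, 0.063 without the injury limit, 0.026 against others below the injury threshold) and Plin2 (0.016 with equal weights, 0.018 on plain CPM). When a section was left out, Cyp7b1 ranged from -1.65 to 0.0032 and Serpina1f from -1.46 to 0.29 against other spots, and Cyp7b1 from -1.47 to 0.16 and Ighg2c from -0.39 to 2.54 against injured spots. The causes were not tested. Immune spots are the shallower kind, and genes near 3 UMIs per sum are limited by depth.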

Other observations

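Each library's own richest spots by the immune score, at or above its own 94th percentile and below the injury threshold, allowed all 6 libraries to be described. They numbered 246, 192, 178, 62, 143 and 158 in WT, mixed female, 2m AS, 5m AS, early treated and late treated 5m AS, and 1, 17, 7, 62, 143 and 158 of them were immune spots by the pooled rule. By edgeR over 14888 genes, 2694 were higher (18.1%) and 3050 lower (20.5%) in these spots than in the rest of their libraries. All 13 T cell genes, all 26 matrix genes and all 9 smooth muscle genes tested were higher, and all 10 late proximal genes were lower.

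These richest spots varied by library in what they held besides leukocytes. Their medians by library are log2 ratios of plain CPM, without TMM scaling. They are thus not on the scale of the section medians above. On plain CPM the T cell list of WT had a median log2 ratio of 1.09, the matrix list 0.93 and the smooth muscle list 1.22. The tubule and mitochondrial lists of WT stood nearer to 0 on that scale, with -0.29 for late proximal tubule, 0.27 for thick ascending limb and -0.14 for mitochondrially encoded genes. In 5m AS the same 3 lists had -2.54, -1.65 and -1.46. The late proximal list stood at -0.19 in mixed female and -0.52 in 2m AS. With treatment it stood at -1.09 (early) and -1.40 (late). Plasma cell genes had their highest median in mixed female, at 2.08, against -0.29 in WT and -0.20 in 5m AS. These medians by library carry no test.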
